A study of Rattus norvegicus with 8 samples.

Results

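The 10 genes described here encode proteins with which enterocytes, the absorptive cells of the gut lining, digest and take up food. They were chosen by their RefSeq identifiers on the array, listed as Si (NM_013061), Fabp1 (NM_012556), Fabp2 (NM_013068), Slc5a1 (NM_013033), Slc15a1 (NM_057121), Slc2a5 (NM_031741), Anpep (NM_031012), Apoa4 (NM_012737), Apob (NM_019287) and Alpi (NM_022665). All 10 were on the array, of 36958 identifiers in all, and 15 of its 41012 probes measured them. Apob had 5 probes, Fabp1 had 2 and each of the other genes had 1. Where a gene had several probes, the probe with the highest mean level leads the description and the other probes are given where they differ.

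The study asked which genes responded to lavender oil (LO), the essential oil of Lavandula angustifolia, given by mouth to healthy rats. Male rats aged 7 weeks, 6 per group, received LO at 5 mg/kg in 10% ethanol, or the 10% ethanol alone (control, 0 mg/kg), into the stomach once a day for 13 days, and tissues were taken on day 14. Their strain is Wistar in the sample characteristics, but Fischer (F334) in the growth protocol and the methods. The RNA of a group was pooled for each tissue, so that 8 RNA pools were compared, a control and an LO pool for the small intestine (about 20 cm from the duodenum), the spleen, and the liver pools G1 and G2. The sources do not say whether the 2 liver pools came from different rats. Each control pool was set against its LO pool on 2 arrays. LO carried the dye Cy5 on array 1 and Cy3 on array 2. The 2 arrays thus measured the same RNA, and the small intestine and the spleen had 1 pool of each treatment, with no second pool to show the spread between animals.

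Enterocytes line the villi and carry a brush border of microvilli whose membrane holds hydrolases that finish the breakdown of sugars, peptides and phosphate esters. Transporters in the same membrane move the products into the cell. Fatty acids are bound inside the cell by small binding proteins, built into triglycerides and packed with apolipoproteins into chylomicrons, which leave through the lymph. Hepatocytes share the lipid side of this programme, since the liver also binds fatty acids with Fabp1 and secretes lipoproteins that contain Apob.

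The promoters of 4 of the genes are shown because, in the values that follow, these genes stood highest above a spleen level at background (Si, Fabp2 and Alpi) or had levels in the small intestine and the liver that could not be told apart (Fabp1). They are RefSeq windows on the rat build GRCr8, from 250 bases before to 50 bases after the start of transcription, written 5′ to 3′ on the strand of the gene. Capitals mark letters that match, on either strand, 1 of 5 motifs searched. The CDX motif was TTTAT, any base and G, that of HNF1 was GTTAAT, that of HNF4 CAAAGTCCA, that of GATA factors AGATAA, and the TATA box TATAAA. In Si, 2 TATA matches overlap and form a single run of capitals.
Si, chr2:159884853-159885152, minus strand: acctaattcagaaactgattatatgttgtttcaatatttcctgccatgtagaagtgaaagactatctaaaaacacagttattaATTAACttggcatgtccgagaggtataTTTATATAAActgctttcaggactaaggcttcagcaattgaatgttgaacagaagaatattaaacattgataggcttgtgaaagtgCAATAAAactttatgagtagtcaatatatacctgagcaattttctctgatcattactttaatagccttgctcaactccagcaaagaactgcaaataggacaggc
Fabp1, chr4:104749090-104749389, plus strand: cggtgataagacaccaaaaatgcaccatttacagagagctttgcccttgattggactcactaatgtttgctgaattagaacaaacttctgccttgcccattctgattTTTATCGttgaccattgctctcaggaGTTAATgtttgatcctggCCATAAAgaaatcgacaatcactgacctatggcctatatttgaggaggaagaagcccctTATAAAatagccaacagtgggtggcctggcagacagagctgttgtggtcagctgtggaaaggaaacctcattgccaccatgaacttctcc
Fabp2, chr2:213724379-213724678, plus strand: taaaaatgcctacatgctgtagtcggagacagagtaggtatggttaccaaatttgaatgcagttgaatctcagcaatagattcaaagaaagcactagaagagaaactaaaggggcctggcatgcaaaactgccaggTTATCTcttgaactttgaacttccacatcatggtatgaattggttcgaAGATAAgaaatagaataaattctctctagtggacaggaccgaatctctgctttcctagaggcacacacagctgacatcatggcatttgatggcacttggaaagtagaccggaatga
Alpi, chr9:95224731-95225030, minus strand: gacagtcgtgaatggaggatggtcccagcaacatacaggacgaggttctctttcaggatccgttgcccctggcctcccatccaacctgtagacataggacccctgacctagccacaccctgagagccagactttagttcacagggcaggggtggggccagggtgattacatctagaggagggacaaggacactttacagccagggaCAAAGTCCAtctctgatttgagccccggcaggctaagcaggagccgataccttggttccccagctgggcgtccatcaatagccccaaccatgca

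A window was at hand for 9 of the 10 genes, all but Apob. The CDX letters stood in 3 of the 9 (Si, Fabp1 and Slc2a5), against 11.3% of all 33469 promoters of the same length. The HNF1 letters stood in Si, Fabp1 and Anpep, against 7.45% of all promoters. The HNF4 letters stood in Alpi alone of the 9, against 0.391%. The GATA letters stood in Fabp2 and Slc15a1, against 11.6%, and the TATA letters in Si and Fabp1, against 14.2%. These are matches of letters and not measured binding, and a missing match says only that the letters were not in the window.

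On each array, both channels stood well above background for between 44.3% and 64.7% of the features. No measurement of the 15 probes was saturated. Levels are given as signal intensity, the background-subtracted and dye-normalized brightness of a probe, which has no unit and is compared between samples for 1 probe, never between probes. By the slide codes in the array file headers each tissue lay on a slide of its own, so tissue and slide cannot be told apart. The labelled tissues carried their markers. All 11 measured genes of intestinal epithelium structure, such as keratins and cadherins, were well above background in every intestine channel. So were the 8 hepatocyte markers in every liver channel, and the 3 B and T lymphocyte markers in every spleen channel. Detection alone does not separate the tissues, since 10 of the 11 epithelium genes also passed in every liver channel and 10 in every control spleen channel. By level (adjusted p below 0.05, limma), all 8 hepatocyte markers were highest in the liver and all 3 lymphocyte markers in the spleen. Of the epithelium genes, 11 were higher in the small intestine than in the spleen, and 10 were higher and 1 lower than in the liver.

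All 10 genes were higher in the small intestine than in the spleen, and 8 of the 10 were higher in the small intestine than in the liver. These are counts at an adjusted p below 0.05 (limma over the 8 RNA pools). Over all 30616 probes tested, 22.5% were higher and 29.9% lower in the small intestine than in the spleen, and 33.5% were higher and 31.4% lower in the small intestine than in the liver. The 2 comparisons share the intestine pools. The 15 probes all passed the filter on dim probes, but Si, Fabp2, Slc5a1, Slc15a1 and Alpi owed this wholly or largely to the tissues in which they were bright. The pools are bulk tissue, in which more enterocytes and more RNA per enterocyte cannot be told apart.

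**Figure D1:**
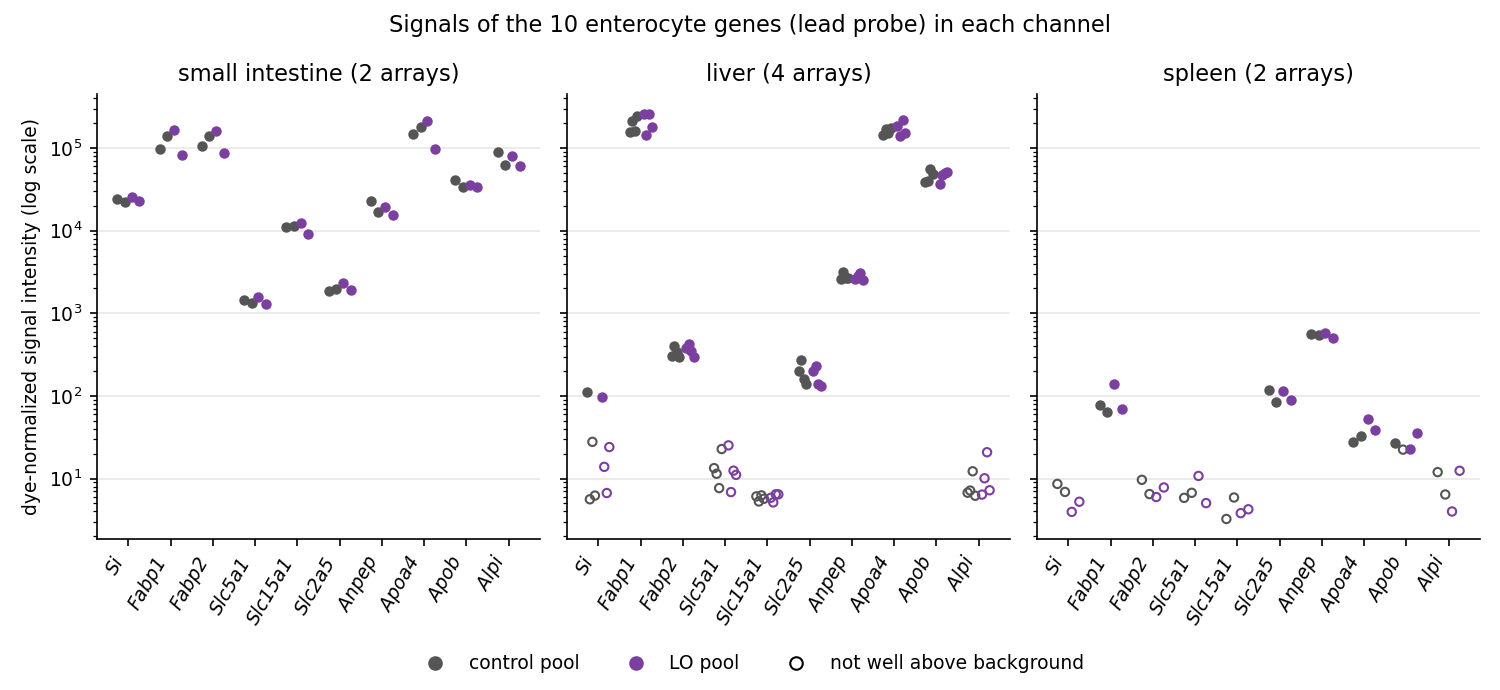
Signal intensity (log scale, no unit) of the lead probe of each gene in every channel of the small intestine (2 arrays), liver (4 arrays) and spleen (2 arrays). Grey points are control pools, purple points LO pools, and open points were not well above background. All intestine points are filled, while Slc5a1, Slc15a1 and Alpi have open points throughout the liver and the spleen, and Fabp1, Apoa4 and Apob reach their intestine range in the liver.

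Among the brush border hydrolases, Si encodes sucrase-isomaltase, which splits sucrose and the branch points of starch. In the small intestine, its control signals were 23946 and 22261 on arrays 1 and 2, and its LO signals 25802 and 23021. In the spleen, its control signals were 8.62 and 6.89 and its LO signals 3.95 and 5.24, all below the level called well above background. The groups did not overlap, and Si was at least 1203-fold higher in the small intestine than in the spleen (adjusted p = 5.4e-05, limma). This bound sets the intestine mean against the lowest signal well above background on the spleen arrays, and the same holds for each such bound below.

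In the liver, Si was well above background in 2 of 8 measurements, both on array 1 of pool G1, with 111.8 in the control channel and 97.1 in the LO channel. On array 2 of the same pools the signals were 5.61 and 13.9, and pool G2 gave between 6.22 and 27.8. The high liver values thus came from 1 array of a pair that held the same RNA, and the cause was not tested. The intestine level of Si exceeded the liver level by 9.95 ± 0.61 (log2, SE; adjusted p = 4.0e-05), and by 7.25 with normexp background correction, which adds an offset of 50 to every signal and so shrinks differences from dim values. The liver level exceeded the spleen level by 1.74 ± 0.61 (log2, SE; adjusted p = 0.043). No fold is given, since most liver and all spleen measurements were not well above background. This last call was lost without array 1 or array 2 of every pair (adjusted p = 0.198 and 0.119) and with normexp background correction (0.130). It was also lost in a fit of all channel values with the array number as a replicate block (0.057) and in the control pools alone (0.191).

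Alpi encodes intestinal alkaline phosphatase, which removes phosphate groups at the brush border. Its control signals in the small intestine were 90748 and 63208, and its LO signals 80987 and 60864. None of its 4 spleen or 8 liver measurements was well above background. Alpi was at least 4659-fold higher in the small intestine than in the spleen (adjusted p = 1.5e-06) and at least 2514-fold higher than in the liver (adjusted p = 3.5e-07). These bounds are on the processed signals, and with the offset of normexp the differences were 9.60 and 9.49 (log2).

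Anpep encodes aminopeptidase N, which trims amino acids from the ends of peptides and is also found on other cells. Its control signals in the small intestine were 22876 and 16800. In the spleen they were 556 and 540, and in the liver they ran from 2637 to 3164. All 16 measurements were well above background, and the 3 tissues did not overlap. The intestine was 43.0-fold above the spleen (95% interval 35.1 to 52.6, adjusted p = 1.7e-06) and 5.29-fold above the liver (4.44 to 6.30, adjusted p = 9.4e-06). The liver was 8.13-fold above the spleen (adjusted p = 3.1e-06).

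Among the transporters, Slc15a1 encodes PEPT1, which carries dipeptides and tripeptides. Its control signals in the small intestine were 11093 and 11260, and its LO signals 12272 and 9172. It was not well above background in any spleen or liver measurement. The intestine was at least 537-fold above the spleen (adjusted p = 5.4e-07) and at least 290-fold above the liver (adjusted p = 8.9e-08), and with normexp the differences were 6.84 and 6.74 (log2).

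Slc5a1 encodes SGLT1, the sodium-coupled carrier of glucose and galactose. It gave 1455 and 1326 in the control pool of the small intestine, and 1570 and 1301 in the LO pool. It too was below the background criterion in every spleen and liver measurement, where its highest signal was 25.2. The intestine was at least 66.4-fold above the spleen (adjusted p = 3.7e-06) and at least 35.5-fold above the liver (adjusted p = 1.8e-06), and with normexp the differences were 3.65 and 3.40 (log2).

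Slc2a5 encodes GLUT5, the fructose carrier. Unlike the other transporters it was well above background in every measurement, with 1846 and 1950 in the control pool of the small intestine, 117 and 83.7 in that of the spleen, and 140 to 273 in the control pools of the liver. The intestine was 22.6-fold above the spleen (95% interval 14.2 to 36.1, adjusted p = 5.6e-05) and 7.31-fold above the liver (4.88 to 11.0, adjusted p = 0.00014). The liver was 3.10-fold above the spleen (adjusted p = 0.0013).

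Fabp2 and Fabp1 encode the intestinal and the liver type of fatty acid binding protein, and they differed in the liver. Fabp2 gave 106295 and 138974 in the control pool of the small intestine, 298 to 420 over the 8 liver measurements, and at most 9.66 in the spleen, where it was not well above background. The intestine was at least 9073-fold above the spleen (adjusted p = 5.4e-07) and 354-fold above the liver (95% interval 289 to 433, adjusted p = 1.8e-07). The liver was at least 25.6-fold above the spleen (adjusted p = 4.8e-07).

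Fabp1 gave 96216 and 139007 in the control pool of the small intestine, and between 157400 and 243120 in the control channels of the liver. In the spleen it was well above background in all 4 measurements, with 77.9 and 63.6 in the control pool. The intestine was 2466-fold above the spleen (adjusted p = 6.4e-07) and the liver 2375-fold (adjusted p = 1.2e-07). Between the small intestine and the liver the difference was 0.05 (log2, 95% interval -0.26 to 0.37, adjusted p = 0.73), and its second probe gave 0.08 (-0.24 to 0.39, adjusted p = 0.62). When each channel was scaled by its 75th percentile in place of Aquantile, which gives all arrays the same distribution of mean brightness, Fabp1 was lower in the small intestine, with a difference of -1.42 (adjusted p = 0.00042). That scaling moved the median of all probes by only -0.21.

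Apoa4 and Apob encode apolipoproteins. Apoa4 coats chylomicrons, and Apob is the structural protein around which chylomicrons and liver lipoproteins are built. Apoa4 gave 148999 and 181402 in the control pool of the small intestine, 143173 to 175080 in the control channels of the liver, and 27.7 and 32.5 in the control pool of the spleen. The intestine was 7011-fold above the spleen (adjusted p = 7.7e-07) and 1.63-fold above the liver (log2 0.70, 95% interval 0.29 to 1.12, adjusted p = 0.012). The direction between small intestine and liver turned with 75th percentile scaling (log2 -0.75, adjusted p = 0.013). The call was lost without array 1 (0.64, adjusted p = 0.064) and in the control pools alone (0.84, adjusted p = 0.19).

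The lead probe of Apob gave 41185 and 33548 in the control pool of the small intestine, 39146 to 56136 in the control channels of the liver, and 26.8 and 22.4 in the control pool of the spleen, where 3 of 4 measurements were well above background. The intestine was 1566-fold and the liver 2087-fold above the spleen (adjusted p = 1.0e-06 and 2.0e-07). Between small intestine and liver the 5 probes of Apob did not give the same answer. The lead probe had a difference of -0.41 (log2, adjusted p = 0.068), 2 probes were lower in the small intestine, by -1.73 (adjusted p = 0.00023) and -1.10 (adjusted p = 0.00051), and the other 2 gave 0.06 and 0.49 (adjusted p = 0.75 and 0.18). The lead probe passed the threshold with 75th percentile scaling (-1.0, adjusted p = 0.0046), with normexp (-0.48, adjusted p = 0.010), with the replicate block (-0.41, adjusted p = 0.014) and without liver pool G1 (-0.59, adjusted p = 0.0060).

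**Figure D2:**
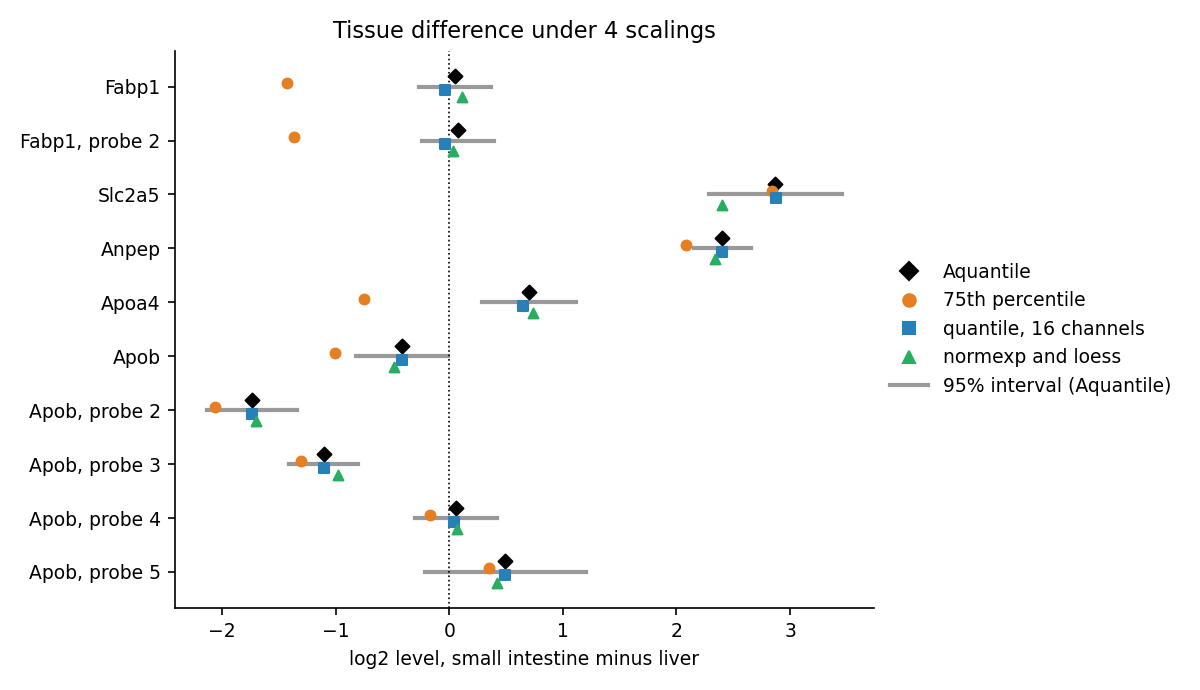
Difference in log2 level, small intestine minus liver, of the 10 probes of Fabp1, Slc2a5, Anpep, Apoa4 and Apob under 4 ways of putting the arrays on 1 scale. Black diamonds with grey 95% limma intervals are the Aquantile values, and orange circles, blue squares and green triangles are the alternatives. Slc2a5 and Anpep stay above 2 throughout, whereas Fabp1 moves from 0.05 to -1.42 and Apoa4 from 0.70 to -0.75 with 75th percentile scaling.

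Between the liver and the spleen, 8 of the 10 genes were higher in the liver by the adjusted p, against 31.9% of all probes higher and 38.3% lower. Slc5a1 is among the 8 although it was not well above background in either tissue, so no fold is given for it, nor for Slc15a1 and Alpi. Si is also among the 8, and no fold is given for it either. Ordered by these tests, the small intestine stood above the liver and the liver above the spleen for Fabp2, Slc2a5, Anpep and, with the exceptions given for them, Si and Apoa4. For Fabp1 and for the lead probe of Apob the difference between small intestine and liver did not pass the threshold, with the exceptions given for them, and both tissues stood above the spleen.

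The other genes of absorption were described in 6 lists, which do not contain the 10 genes. They were chosen by function, but with earlier results of these data known. In the order below, the lists named 16, 18, 14, 16, 12 and 14 genes, and those without a named probe on the array were not tested. Where only some measurements of the dimmer tissue were well above background, the fold given sets the others to no less than the lowest signal well above background on their array. Of the brush border hydrolases, 11 of 11 tested were higher in the small intestine than in the spleen, with a median log2 difference of 7.60, and 10 were higher and 1 lower than in the liver (median 7.29). The median over all probes was -0.12 and 0.00328 in these comparisons. The meprin subunits Mep1a and Mep1b, which cut peptides, were at least 727-fold and 578-fold above the spleen, and Enpep, a peptidase that removes acidic residues, was 351-fold above it (1 of 4 spleen measurements well above background). Cdhr5, a cadherin that links microvilli, was 519-fold above the spleen and at least 1705-fold above the liver. Ace, the angiotensin-converting enzyme, was at least 234-fold above the liver.

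Of the genes of lipid absorption and chylomicron assembly, 11 of 12 were higher and 1 was lower than in the spleen (median 6.54), and 10 were higher and 2 lower than in the liver (median 1.26). Rbp2, the retinol binding protein of the gut, was at least 3468-fold above the spleen and at least 1941-fold above the liver. Npc1l1, the cholesterol uptake protein, was at least 914-fold and at least 497-fold above them. Apoa1, an apolipoprotein of chylomicrons and of high-density lipoprotein, was 5645-fold above the spleen (2 of 4 measurements well above background) and 1.53-fold above the liver (adjusted p = 0.016). Apoc3, an apolipoprotein secreted by the liver, was 755-fold above the spleen but 3.37-fold lower than in the liver. Cd36, a fatty acid receptor of many cells, was 3.06-fold lower in the small intestine than in the spleen. With 75th percentile scaling the counts against the liver were 8 higher and 3 lower.

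Of the sugar, peptide and amino acid transporters, 8 of 10 were higher and 1 was lower than in the spleen (median 2.77), and 9 were higher and 0 lower than in the liver (median 3.65). Slc3a1, a subunit of the transporter of cystine and basic amino acids, was at least 384-fold above the spleen and at least 207-fold above the liver. Slc2a2, the glucose carrier GLUT2, was at least 185-fold above the spleen but 1.97-fold above the liver, where hepatocytes use it. Of the genes of mineral and vitamin uptake, 14 of 14 were higher than in the spleen (median 6.35), and 13 were higher and 1 lower than in the liver (median 4.35). S100g, the calcium binding protein calbindin-D9k, was 5930-fold above the spleen (3 of 4 measurements well above background) and 2295-fold above the liver.

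Of the enterocyte transcription factors, 9 of 9 were higher than in the spleen (median 5.66), whereas 4 were higher and 4 lower than in the liver (median -0.20). Cdx2, which sets intestinal identity, was 179-fold above the spleen and 281-fold above the liver (3 of 8 measurements well above background), and Klf5, a factor of crypt and epithelial growth, was at least 98.9-fold above the liver. Creb3l3, a factor of lipid metabolism in liver and gut, was 792-fold above the spleen (2 of 4 measurements well above background), with a difference of -0.20 from the liver (log2, adjusted p = 0.34). Foxa2, a factor of endoderm, was 6.36-fold lower than in the liver. Of the genes of intestinal epithelium structure, 11 of 11 were higher than in the spleen (median 9.20), and 10 were higher and 1 lower than in the liver (median 3.38). Krt20, a keratin of mature villus cells, was 6529-fold above the spleen (2 of 4 measurements well above background) and 550-fold above the liver. Lgals4, a galectin of the gut epithelium, was 1372-fold above the spleen and at least 1946-fold above the liver.

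**Figure D3:**
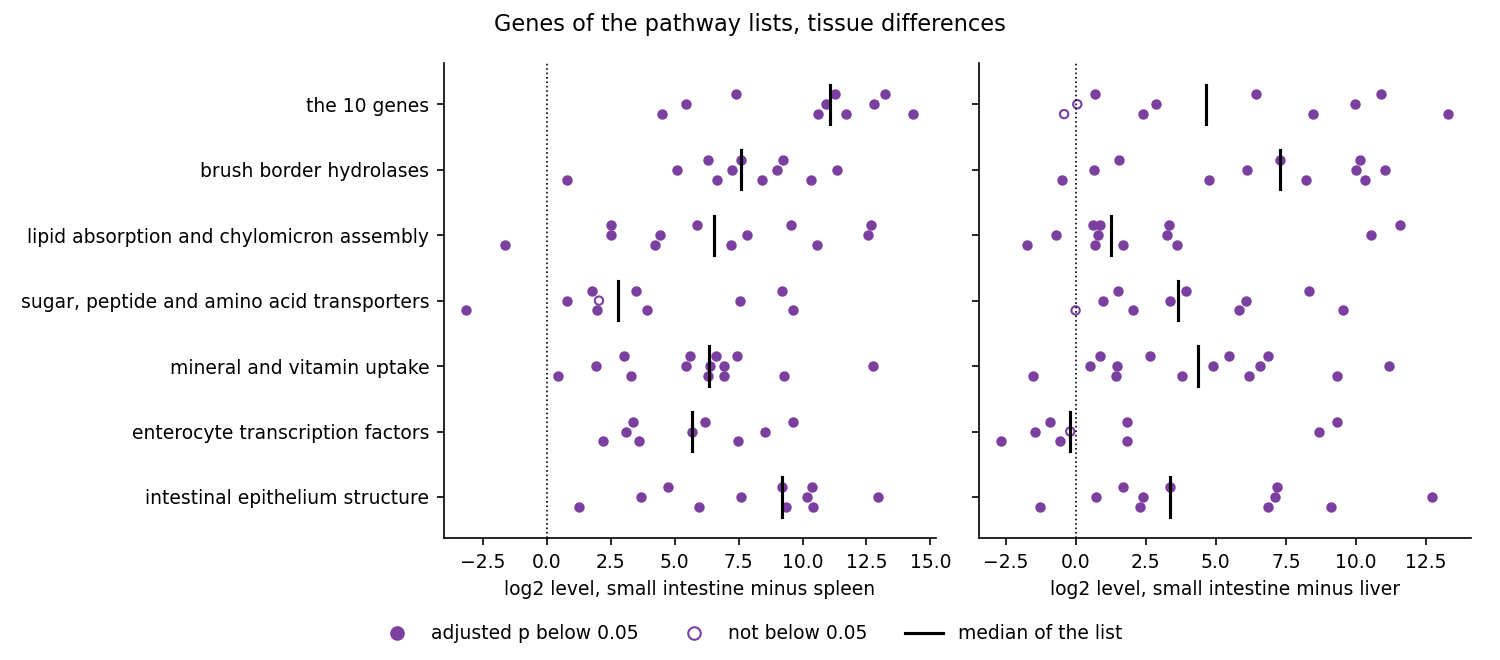
Difference in log2 level of each gene of the 10 described here and of the 6 lists, small intestine minus spleen (left) and small intestine minus liver (right). Filled points had an adjusted p below 0.05 (limma), open points did not, and black bars are list medians. Values are as fitted, including genes at background in the dimmer tissue. Nearly all points lie above 0 against the spleen, while the transcription factors centre near 0 against the liver (median -0.20).

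No probe of the 10 genes passed the threshold for LO in any tissue. In the limma fit on the means of the 2 arrays of each pool pair, 0% of the 30616 probes passed an adjusted p below 0.05 in the small intestine, the spleen or the liver, in either direction. At an unadjusted p below 0.05, 1205, 1303 and 1781 probes passed in the 3 tissues, and 0, 4 and 0 of the 15 probes of the genes were among them. Only the 2 liver pools gave this fit its residual spread, and the small intestine and the spleen were assumed to vary as the liver did. That left 1 residual degree of freedom, so a p above the threshold does not show that a gene stayed the same. The intervals given with each value show what the data allow under that assumption. For Si, Slc5a1, Slc15a1 and Alpi, which were at or near background in the liver, that spread came from dim signals. The liver ratios of Slc15a1 were 1 on every array, and those of Si ran from 0.240 to 3.87. Their intervals in the small intestine thus do not measure the precision of the intestine values.

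In the small intestine, the lead probes ranged from -0.18 to 0.17 (log2 LO/control), with a median of -0.06 against 7.55e-05 over all probes. Si had LO/control ratios of 1.08 on array 1 and 1.03 on array 2, with a mean of 0.08 (log2, 95% interval -1.09 to 1.25). Alpi had 0.892 and 0.963, with a mean of -0.11 (-0.65 to 0.43), and Anpep had 0.846 and 0.931, with a mean of -0.17 (-0.55 to 0.21). The 2 arrays lay on the same side of 1 for each of the 3 hydrolases. The adjusted p was 1 for every probe of the 10 genes.

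Among the transporters, Slc5a1 had ratios of 1.08 and 0.981 (mean log2 0.04, 95% interval -0.52 to 0.60). Slc15a1 had 1.11 and 0.815 (mean -0.08, -0.35 to 0.20). Slc2a5 had 1.28 and 0.995, which gave the highest mean of the lead probes, 0.17 (-0.10 to 0.45). For these 3 genes the arrays lay on opposite sides of 1.

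Apob was the gene with the most measurements. Its 5 probes gave means of -0.10, -0.23, -0.19, -0.21 and -0.23, and 8 of the 10 ratios were below 1, with a range from 0.692 to 1.04. The probes share the same RNA and arrays and are not replicates. The 95% interval of each mean included 0, the narrowest margin being -0.52 to 0.05, and the unadjusted p ranged from 0.071 to 0.37 (limma).

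For Fabp1, Fabp2 and Apoa4 the arrays pointed in opposite ways by a wide margin. Fabp1 had LO/control of 1.70 where LO carried Cy5 and 0.597 where it carried Cy3, with a mean of 0.01 (-0.26 to 0.29), and its second probe had 1.46 and 0.658. Fabp2 had 1.5 and 0.628 (mean -0.04, -0.46 to 0.38), and Apoa4 had 1.45 and 0.539 (mean -0.18, -0.53 to 0.17). In each case the Cy5 channel was the brighter on both arrays, with Cy5/Cy3 of 1.70 and 1.68 for Fabp1, 1.5 and 1.59 for Fabp2, and 1.45 and 1.86 for Apoa4. Cy5/Cy3 was at least 1.5 on both arrays for 2 of the 15 probes in the small intestine, where 3.45% of all features did this. Of the brightest 1% of features there (434, 6 of them probes of the 10 genes), 2 (0.461%) did so, and both were probes of the 10 genes. In the spleen it was 0 of 15 (2.77%), in liver pool G1 1 of 15 (6.35%) and in pool G2 1 of 15 (7.38%). Over all probes, the log2 LO/control values of the 2 arrays of a pair correlated negatively, at -0.63 for the small intestine, -0.60 for the spleen and -0.72 for each liver pool (across 30616 probes, which are not replicates). The mean of the 2 orientations cancels such a dye difference.

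**Figure D4:**
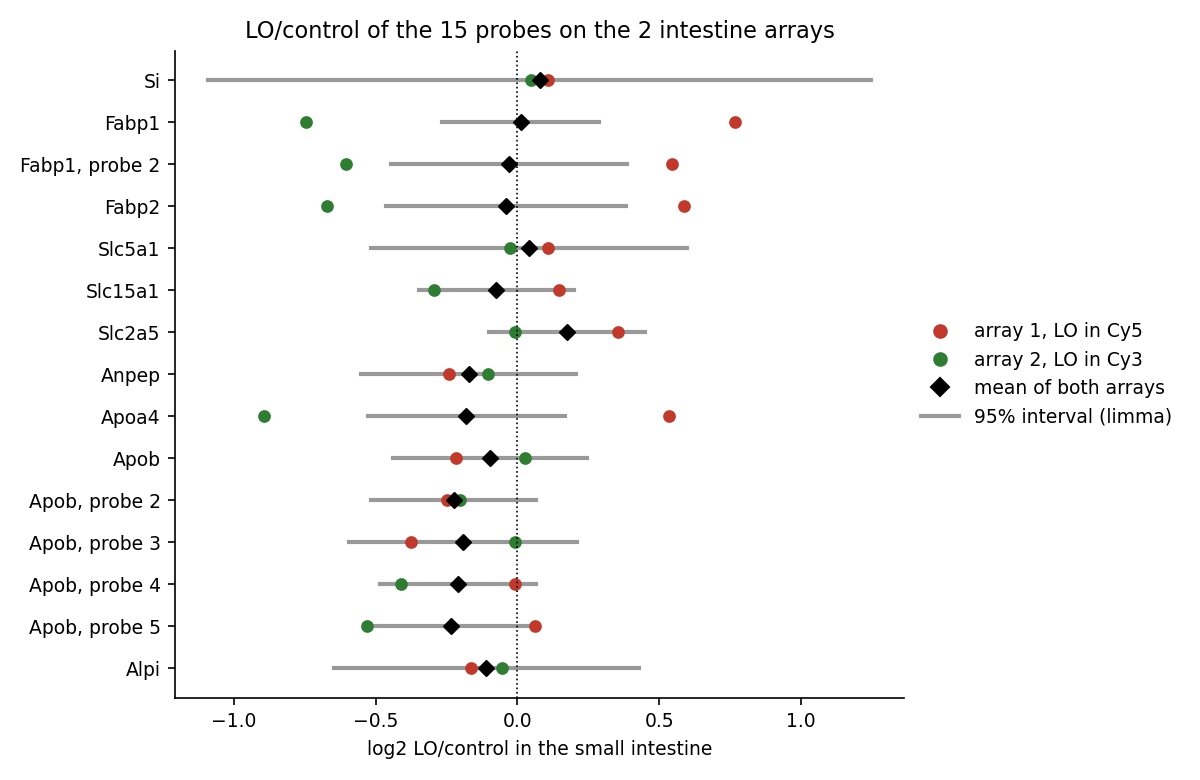
Log2 LO/control of the 15 probes on the 2 small intestine arrays. Red circles are array 1 (LO in Cy5), green circles array 2 (LO in Cy3), black diamonds their mean, and grey bars the 95% limma interval. All 15 intervals include 0, all 5 Apob diamonds lie below 0, and the widest gaps between red and green are those of Fabp1, Fabp2 and Apoa4.

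By the cut-offs that the methods of the study used, a Cy5/Cy3 ratio of at least 1.5 in an orientation and at most 0.75 in the reverse, 0 of the 15 probes was called in any tissue. Over all 43345 features, these cut-offs called 0.36% up and 0.353% down in the small intestine, and 0.399% up and 0.152% down in the spleen. They called 0.0208% up and 0.0254% down on all arrays of both liver pools, a stricter rule than on the 2 arrays of a pair. On the 2 arrays of a single liver pool they called 177 features up and 174 down in G1, and 221 up and 322 down in G2.

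The wider lists of absorption genes had no member past the adjusted threshold for LO in any tissue. Their medians in the small intestine were -0.06 for brush border hydrolases, -0.03 for lipid absorption, -0.03 for transporters, -0.04 for mineral and vitamin uptake, -0.04 for transcription factors and -0.06 for epithelium structure. The largest single values were 0.32 for Slc34a2, a phosphate transporter, and 0.26 for Bco1, which cleaves carotene. Other cell types were measured beside them. All 10 exocrine pancreas markers, which the pancreas next to the duodenum makes, were well above background in every intestine channel. Their summed signal was 949707 to 1078330 in the control pool and 705052 to 1070080 in the LO pool. These ranges run over 2 arrays with swapped dyes and do not pair the channels. The log2 LO/control was below 0 for 10 of 10, with a median of -0.19, where 50% of all probes were above 0. The 3 erythroid markers, summing to 1070 to 1508 in the control pool and 1408 to 1698 in the LO pool, were above 0 with a median of 0.29. Goblet, Paneth, enteroendocrine, smooth muscle, lymphocyte and hepatocyte markers had medians between -0.12 and 0.08. Of these markers, Alb, Apoh, Cyp2e1, Hpx, Tat, Cd2 and Defa5 were not well above background in any intestine channel. Single values ran from -0.56 (Cd2) to 0.32 (Alb), both dim there. The part of these cell types in the values of the 10 genes was not tested.

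In the liver, the mean LO/control over both pools ranged from -0.12 (Slc2a5, 95% interval -0.32 to 0.07) to 0.37 (Alpi, not well above background in any liver measurement, -0.01 to 0.75), and the lowest adjusted p was 0.83. The genes that the liver expressed strongly stayed near 0. Fabp1 had a mean of 0.10 (-0.10 to 0.29), Apoa4 0.10 (-0.15 to 0.34), Apob 0.01 (-0.23 to 0.25) and Anpep -0.01 (-0.28 to 0.25). As in the small intestine, the LO/control of Fabp1 was above 1 where LO carried Cy5 (1.65 in pool G1, 1.59 in G2) and below 1 where it carried Cy3 (0.683 and 0.734).

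The LO effect in the small intestine was also set against that in the liver within the same fit. Here too 0% of all probes passed, with 1378 at an unadjusted p below 0.05, of which 0 belonged to the 10 genes. The largest difference among the lead probes that were bright in both tissues was 0.30 for Slc2a5 (95% interval -0.04 to 0.63, adjusted p = 0.99).

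In the spleen, an organ without enterocytes, the members of the lipid group had the largest LO values among genes above background. Fabp1 had control signals of 77.9 and 63.6 and LO signals of 140 and 69.9, so that LO/control was 1.79 and 1.1. The mean was 0.49 (log2, 95% interval 0.21 to 0.77, unadjusted p = 0.015 and adjusted p = 1, limma). The second probe gave a mean of 0.44 (0.02 to 0.85, unadjusted p = 0.046, limma), from ratios of 1.096 on array 1 and 1.668 on array 2. The larger ratio was thus on array 1 for the lead probe and on array 2 for the second, from the same RNA. Apoa4 had control signals of 27.7 and 32.5 and LO signals of 53.0 and 39.0, with ratios of 1.91 and 1.20 and a mean of 0.60 (0.25 to 0.94, unadjusted p = 0.016 and adjusted p = 1). For Fabp1 and Apoa4 both LO signals exceeded their control partner on the same array. Both genes were dim in the spleen beside their intestine and liver signals. Their intervals and p-values nevertheless rest on the spread between the liver pools, where both were bright, and not on spleen replicates. The SD between the 2 spleen arrays was 0.50 for Fabp1 and 0.48 for Apoa4 (log2). With normexp background correction the adjusted p of Fabp1 was 0.059.

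The fourth probe at an unadjusted p below 0.05 was an Apob probe that was not well above background in any spleen measurement (-0.50). The lead Apob probe had ratios of 0.848 and 1.60 (mean 0.22, -0.12 to 0.56). Slc2a5 and Anpep, which were also above background in the spleen, had means of 0.02 (-0.25 to 0.30) and -0.02 (-0.40 to 0.35). Si, Fabp2, Slc5a1, Slc15a1 and Alpi were not well above background there, and their ratios compare dim signals.

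Hepatocyte markers were measured beside these values. Of the 8, 7 had a mean spleen LO/control above 0 on the log2 scale, where 46.5% of all probes did. Their median was 0.35 against -0.00487 over all probes. Apoh, 1 of the 7, had ratios of 1.31 and 0.944 on arrays 1 and 2. Their summed signal was 626 to 739 in the control pool and 734 to 1305 in the LO pool. Most of this sum was the signal of Alb, 549 and 445 in the control pool and 1027 and 512 in the LO pool. Albumin (Alb) had ratios of 1.87 and 1.15, transthyretin (Ttr) 2.35 and 1.0, and the fibrinogen chain Fga 1.70 and 1.56. Cyp2e1 and Tat, enzymes of hepatocytes, were not well above background in any spleen measurement. Fga was not well above background in either control channel of the spleen, with signals of 22.1 and 16.4, so its ratios have a dim denominator. Apoc3 and Apoa1, further apolipoproteins that the liver makes, had means of 0.56 and 0.49 (adjusted p = 1). They were the highest of the 12 genes of the lipid list, of which 7 were above 0, with a median of 0.05. The lowest of that list was Soat2 at -0.41, with 1 of 4 spleen measurements well above background. The 3 erythroid markers had a median of 0.29. The part of these markers in the values of Fabp1 and Apoa4 was not tested.

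**Figure D5:**
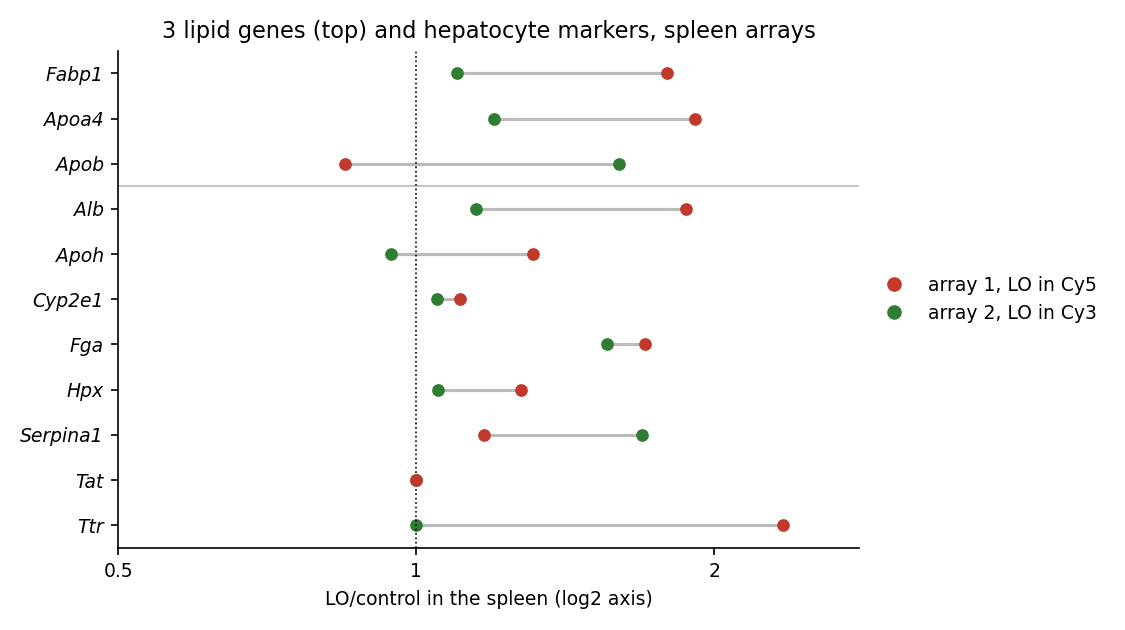
LO/control on the 2 spleen arrays (log2 axis) of Fabp1, Apoa4 and Apob (above the line) and of the 8 hepatocyte markers (below it). Red circles are array 1 (LO in Cy5) and green circles array 2 (LO in Cy3), joined by a grey line, and at Tat both lie at 1. Fabp1 and Apoa4 lie above 1 on both arrays, as do Alb, Cyp2e1, Fga, Hpx and Serpina1 among the markers.

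Over the 8 RNA pools, the log2 levels of Si were most like those of Chmp5 (Pearson r = 0.9991), Ccdc68 (0.9990) and Cyp1a1 (0.9989) among 7227 named candidates. Those of Fabp1 were most like Tmem82 (0.9997), Cyp4f1 (0.9996) and Igsf5 (0.9995). The pools fall into 3 tissues, so these values describe a shared tissue pattern, and many genes come close to it.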

How the data were processed

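The 8 arrays (rat whole genome 4x44K, Agilent, 2 dyes) were scanned and extracted by the authors with Agilent Feature Extraction 11.0.1.1. The authors deposited, for each feature, the log10 ratio of Cy5 over Cy3 after background subtraction and dye normalization, the p-value of that ratio from the error model of the software, and the processed signal intensity of each channel. Median intensity values before correction, also deposited, served the normexp alternative. The log10 values of the series table, deposited by the authors, are the same ratios within 1e-04 for 80.4% to 89.3% of features, with scale and direction as in the array files and medians between -0.0225 and 0.0166, and served as an alternative. Ratios of exactly 1 stand for dim features in both channels.

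Ratios were turned to log2 LO over control by the dyes in the labels, and the 2 arrays of a pool pair, which hold the same RNA, were averaged to 1 replicate. limma 3.58.1 (R 4.3.3) was fitted over the 4 pairs with a coefficient per tissue (1 residual degree of freedom, prior 1.20). Levels were log2 processed intensities put on 1 scale by Aquantile, averaged to 1 value for each of 8 RNA pools, and fitted by tissue and treatment (4 residual degrees of freedom, prior 1.78). p-values were adjusted by Benjamini-Hochberg over 30616 of 41012 probes, with a threshold of 0.05. These passed a filter that asked for 2 or more arrays on which a channel stood well above background. The p-values measure the spread between these pools and not between animals. Copies of a probe were averaged, and control features and non-uniform outliers were left out. Symbols came from RefSeq identifiers, which named 10769 probes (26.3%).

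The 10 genes, the lists and the markers were chosen with earlier results of these data known. From each list and comparison at most 4 genes were named, out of the 4 with the largest difference past the threshold or, where none passed, the largest value, and the 3 genes most like Si and Fabp1. The bounds (at least N-fold) set the mean normalized log2 value of the brighter tissue against, per array, the higher of the lowest signal well above background and the probe's own, with balanced dye swaps. Replicate numbers mark dye orientation in the labels. The deviations from the pair means of arrays with the same number correlated at 0.554 to 0.805 over 12 pairs of arrays. The 2 deviations within a pool pair mirror each other, so these are not 12 separate values, and they hold the dye difference. The fit on single arrays with a replicate block was therefore an alternative. Each fit was tested on simulated data, in which the LO fit called none of the changes planted in the small intestine. The number of arrays limits the precision. Other alternatives were other scalings and background corrections, no filter on dim probes, ratios of exactly 1 as missing, an intensity trend, the control pools alone, other cut-offs, and each replicate or liver pool left out. Promoters were searched and plots drawn with Python 3.11.15, numpy 2.4.6, pandas 2.3.3 and matplotlib 3.10.9.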

Additional observations from a re-analysis of the deposited data

How the results depend on the processing

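No probe of the 10 genes was called for LO in any tissue under any alternative, and the lowest adjusted p was 0.059 (Fabp1, spleen, normexp). The number of probes called over the whole array, 0 in each tissue in the pair-mean fit, rose with normexp and loess to 32 (small intestine), 110 (spleen), 150 (liver) and 27 (small intestine minus liver). On single arrays it was 1 in the small intestine and 1 for small intestine minus liver, both without and with the replicate block, the same probe each time (ENSRNOT00000050435, log2 -2.38, adjusted p = 0.0039 and 0.0078 in the small intestine, named after its values were seen). The replicate block changed no LO call of the 10 genes. Alternatives chosen after seeing the data gave 4, 22, 40 and 6 (block with normexp and loess) and 4 in the spleen and 15 in the liver (block with an intensity trend). The 4 in the small intestine were L17078, M87788, AJ250889 and L22655, also named after their values were seen. Without replicate 1 or replicate 2 the LO counts stayed at 0.

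The level counts (16045 for small intestine minus spleen, 19875 for small intestine minus liver, 21484 for liver minus spleen) were 3636, 6751 and 9996 in the control pools alone. With an array number or a liver pool left out they ranged from 13492 to 23569, 16798 to 25938 and 18822 to 26735. With 75th percentile scaling the difference between small intestine and liver reversed for Fabp1 (-1.42) and Apoa4 (-0.75), and liver minus spleen reversed for Alpi (1.03, not well above background in either). That scaling moved the share of higher among called probes from 51.6% to 44.3% for small intestine minus liver and from 45.4% to 54.1% for liver minus spleen. The cut-offs of the methods called 309, 239 and 20 features in the small intestine, spleen and both liver pools, 9, 7 and 4 with the software P below 0.01 added, and 205, 146 and 12 with symmetric cut-offs. The causes were not tested. Probes near background, which include Si, Fabp2, Slc5a1, Slc15a1 and Alpi in the spleen, give no usable LO ratio.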
